A study of Mus musculus with 12 samples.

Results

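Kcnj13 encodes an inwardly rectifying potassium channel (Kir channel), and it was described here in the amygdala of the mouse together with 8 further Kir channel genes and with Gigyf2, a gene whose transcription unit runs across Kcnj13 on the opposite strand. The 10 genes were found by symbol among 47729 genes with estimated read counts, and each had 1 entry. Kcnj13 was selected on its measured expression, because the study listed it among the genes with the greatest decrease in the more anxious mice. Its difference between the groups is therefore given as a description with no test. Gigyf2 was chosen by its position and Kcnj3, Kcnj6, Kcnj9, Kcnj2, Kcnj4, Kcnj10, Kcnj16 and Kcnj11 by their gene family.

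The data came from bilateral amygdalae of 12 female C57/BL6 mice, an inbred strain, which were purchased at 7 weeks of age and received no drug or genetic modification. Each mouse was tested in an elevated plus maze (EPM), then in a light/dark (LD) box and last for social interaction (SIT) at 9, 10 and 11 weeks of age before 1 stranded mRNA library per animal was sequenced. The labels place 3 mice in a less anxious group (mice 3, 7 and 12), 4 in an anxious group (mice 1, 4, 8 and 11) and 4 in a more anxious group (mice 2, 6, 9 and 10), and leave mouse 5 without a group. The groups were made by the authors from scores on a principal component of these same libraries, so group differences in expression are not independent of how the groups were formed, and the group is a prediction and not a treatment. The total estimated count lay between 31745630 and 45142355 in the 11 grouped mice, with medians of 37055198, 36205614 and 40644746 from less to more anxious. Markers of the basolateral amygdala (Rspo2, Etv1 and Cyp26b1) and of the central amygdala (Prkcd, Crh, Tac2 and Dlk1) had reads in all 11 mice, with summed levels of 80.6 to 185 and 51.1 to 91.1 CPM (counts scaled to a common library size).

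Kir channels pass potassium ions more easily into the cell than out of it and so hold the membrane near the potassium equilibrium potential. Those of the Kcnj3, Kcnj6 and Kcnj9 group (GIRK channels) open when G protein βγ subunits are released by receptors such as the GABA-B, opioid and serotonin receptors, and quiet neurons. Those of Kcnj2 and Kcnj4 set the resting potential of neurons, Kcnj10 and Kcnj16 form the channels with which astrocytes take up potassium, and Kcnj11 forms the pore of the ATP-sensitive (KATP) channel that couples metabolism to excitability. The channel of Kcnj13 is best known from the epithelium of the choroid plexus and the retinal pigment epithelium, where it serves ion transport. Gigyf2 encodes a protein that represses the translation of bound mRNAs.

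In GENCODE M21 (GRCm38, also called mm10), Kcnj13 lies at chr1:87386363-87394729 on the minus strand with 3 exons and 1270 exonic bases, and Gigyf2 lies at chr1:87326998-87450796 on the plus strand. Of the exonic bases of Kcnj13, 623 (49.1%) also lie in an exon of Gigyf2, 551 of them coding for the channel. They form 2 stretches, of 355 bases at chr1:87389051-87389405 and of 268 bases at chr1:87386363-87386630, and belong to 3 of the 23 annotated Gigyf2 transcripts. The reads were 75 bases long and came from a stranded kit, but the strand setting of the counting is not given in the sources used here. If strand was not used, reads from these stretches could not be assigned to one of the genes. Of the 31-base words of Kcnj13 transcripts, 44.8% occurred on the opposite strand in another gene's transcripts, all in Gigyf2, and 0% on the same strand in any other gene. The start of the coding sequence, which lies within the longer stretch, is shown because its bases belong to both genes. It is printed in the direction of Kcnj13 with the start codon in capitals and covers chr1:87389270-87389389 (minus strand, mm10):
Kcnj13 shared coding stretch: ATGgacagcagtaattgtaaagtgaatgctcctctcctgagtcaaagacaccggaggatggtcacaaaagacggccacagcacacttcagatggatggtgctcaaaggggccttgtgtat

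**Figure D1:**
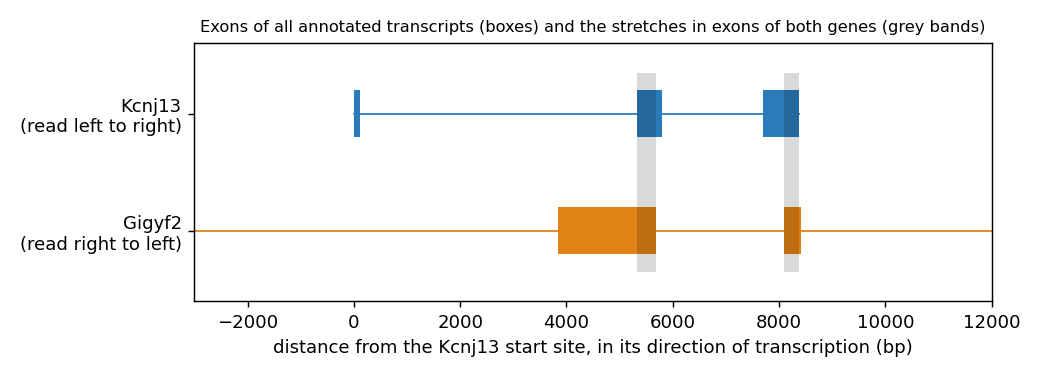
Exons of all annotated transcripts of Kcnj13 (upper row) and Gigyf2 (lower row) as boxes against the distance from the Kcnj13 start site in base pairs, with the stretches in exons of both genes as grey bands. The bands of 355 and 268 bases cover part of the second and of the last Kcnj13 exon, while the first exon is free of Gigyf2 exons.

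The promoters of Kcnj13 and Kcnj10 are shown because these were the 2 genes whose values in every more anxious mouse lay below those of every less anxious mouse (described below). The 250 bases upstream of the start were taken from RefSeq promoters of the mm10 build, which held 9 of the 10 genes. Both strands were searched for the motifs TATAAA, the core of the TATA box, and TAATCC, a motif bound by Otx2 and related homeodomain factors, and matches are in capitals. Kcnj13 (chr1:87394730-87394979, minus strand, 45.2% GC) held 1 TATAAA and no TAATCC, while Kcnj10 (chr1:172340960-172341209, plus strand, 62% GC) held neither:
Kcnj13 promoter: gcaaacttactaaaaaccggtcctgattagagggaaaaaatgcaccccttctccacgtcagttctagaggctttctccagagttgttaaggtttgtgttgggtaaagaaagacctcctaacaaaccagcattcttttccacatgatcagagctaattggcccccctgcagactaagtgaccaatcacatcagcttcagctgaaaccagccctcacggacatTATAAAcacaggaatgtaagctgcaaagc
Kcnj10 promoter: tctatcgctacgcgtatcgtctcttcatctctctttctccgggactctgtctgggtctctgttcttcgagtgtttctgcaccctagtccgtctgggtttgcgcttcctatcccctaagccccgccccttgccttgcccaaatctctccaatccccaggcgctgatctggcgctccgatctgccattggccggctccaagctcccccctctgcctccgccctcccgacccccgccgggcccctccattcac
Of the 13 promoter entries of these genes, 3 held TATAAA (Kcnj13, Kcnj9 and 1 of 4 of Kcnj16) and 1 held TAATCC (Kcnj9). Among 32851 mouse promoter entries of the same length the shares were 12.4% and 6.25%.

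Kcnj13 was the member with the widest spread between mice relative to its mean (SD 112% of the mean over the 11 mice). In the less anxious group it had 3.25 CPM in mouse 3, 4.19 in mouse 7 and 5.16 in mouse 12, from 117, 167 and 198 reads. In the anxious group the levels were 0.172 CPM in mouse 1, 0.526 in mouse 4, 1.55 in mouse 8 and 0.845 in mouse 11, from 6, 20, 57 and 28 reads. In the more anxious group they were 0.134 CPM in mouse 2, 0.300 in mouse 6, 0.204 in mouse 9 and 1.20 in mouse 10, from 6, 10, 9 and 43 reads. All 3 less anxious mice thus lay above all other mice, whereas the anxious and more anxious groups overlapped. The group means were 4.201 ± 0.955 CPM (SD, n = 3), 0.774 ± 0.588 (n = 4) and 0.458 ± 0.496 (n = 4). Within the anxious and more anxious groups the highest mouse was 9.01 and 8.89 times the lowest, and in the less anxious group 1.59 times. The fitted log2 difference of more against less anxious mice was -3.26 ± 0.77 (SE, 95% interval -5.01 to -1.51), which is 9.57-fold lower in the more anxious mice, and that of anxious against less anxious mice was -2.56. Because Kcnj13 was selected on its decrease in the more anxious mice, these differences may be too large, and the interval is no test. Mouse 10 was the highest of the more anxious mice, and without it the difference was -4.54.

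**Figure D2:**
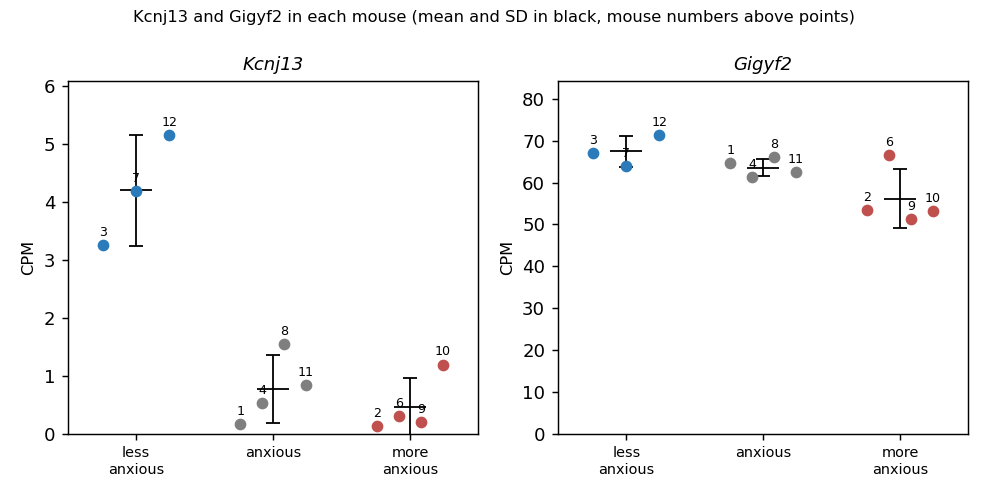
CPM of Kcnj13 (left) and Gigyf2 (right) in each of the 11 mice by group, with the mean and SD in black (an SD that would reach below 0 is drawn only above it) and the mouse number above each point. Kcnj13 lay between 3.25 and 5.16 CPM in the less anxious mice and at or below 1.55 in all others, while Gigyf2 lay between 51.2 and 71.4 CPM with overlapping groups.

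Gigyf2 was expressed far above Kcnj13 and varied little. Its levels were 67.1, 63.9 and 71.4 CPM in less anxious mice 3, 7 and 12, 64.6, 61.3, 66.02 and 62.4 in anxious mice 1, 4, 8 and 11, and 53.4, 66.6, 51.2 and 53.2 in more anxious mice 2, 6, 9 and 10. More anxious mice 2, 9 and 10 lay below all other mice, and mouse 6 lay within the range of the less anxious group. The log2 difference of more against less anxious mice was -0.29 ± 0.10 (SE, 95% interval -0.51 to -0.074) with an adjusted p of 0.732 across the 3 groups (edgeR's quasi-likelihood F-test, Benjamini-Hochberg over 26963 genes). Gigyf2 was therefore not called. Per 100 Gigyf2 reads, Kcnj13 had 4.85, 6.55 and 7.23 reads in the less anxious mice, 0.267, 0.857, 2.35 and 1.35 in the anxious mice and 0.252, 0.450, 0.398 and 2.25 in the more anxious mice (in the order given above). The ratio separated the same 3 mice from the other 8. It largely repeats the Kcnj13 values and is no further result, because the highest mouse was 1.39 times the lowest for Gigyf2 and 38.4 times for Kcnj13. Log2 CPM of the 2 genes had a Pearson r of 0.557 over 11 mice (permutation p = 0.0792, adjusted over 9 correlations 0.143; Spearman rho = 0.536, permutation p = 0.0945, adjusted 0.170), which was 0.303 without mice 2 and 12 and 0.247 within the 8 mice outside the less anxious group.

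Across the 3 anxiety groups, 2 of 26963 genes (0.00742%) passed an adjusted p of 0.05 in edgeR's test and 1712 (6.35%) an unadjusted p of 0.05. Of the 9 genes other than Kcnj13, none was called, and 1 (Gigyf2) had an unadjusted p below 0.05. DESeq2's likelihood ratio test called 186 of 34511 genes with any read (0.539%) and likewise none of these 9. Its own filter can leave genes of low count without an adjusted p, so this share is not on the same base as that of edgeR. Their log2 differences of more against less anxious mice ranged from -0.36 to 0.23 with a median of -0.080, and 6 of the 9 were below 0, where the median of all genes tested was 0.0037. In 8 of the 9 genes the less and more anxious mice overlapped. The exception was Kcnj10, in which the more anxious mice were lower. Among genes with a mean of at least 1 CPM, every more anxious mouse lay below every less anxious mouse in 4.76% and above in 5.27%.

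**Figure D3:**
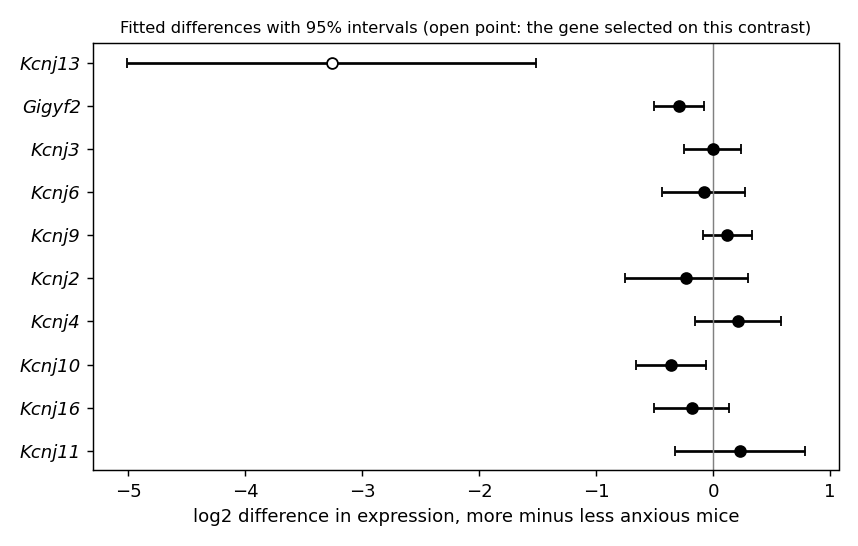
Fitted log2 differences in expression of more minus less anxious mice (x axis) for the 10 genes (y axis), with 95% intervals as bars. The open point marks Kcnj13 at -3.26, which was selected on this contrast, so its bar is no test. The other 9 genes lie between -0.36 and 0.23, with intervals that exclude 0 only for Gigyf2 and Kcnj10.

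The genes of the family differed widely in level. Per kilobase of exon, the mean level over the 11 mice was 45.2 ± 8.73 CPM for Kcnj4, 26.5 ± 2.08 for Kcnj9, 20.1 ± 1.84 for Kcnj3, 16.5 ± 2.75 for Kcnj10, 8.47 ± 1.24 for Kcnj16, 4.36 ± 0.461 for Gigyf2, 3.17 ± 0.995 for Kcnj2, 1.28 ± 0.314 for Kcnj11, 1.26 ± 1.40 for Kcnj13 and 0.878 ± 0.109 for Kcnj6 (SD, n = 11). Each of the first 7 exceeded the next in this order in at least 10 of 11 mice. The place of Kcnj13 among the last 3 was not set apart by its spread, since Kcnj11 exceeded Kcnj13 in 7 mice and Kcnj13 exceeded Kcnj6 in 5, while Kcnj11 exceeded Kcnj6 in 10. In the less anxious mice alone Kcnj13 reached 3.31 ± 0.752 CPM per kilobase (n = 3), beside 3.91 ± 1.10 for Kcnj2, and in the more anxious mice 0.361 ± 0.391 (n = 4), below every other member. With the length of the longest transcript in place of all exons merged, Gigyf2 came to 10.8 and Kcnj6 to 1.85 CPM per kilobase, which changes their place in this order.

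The GIRK channel genes were among the steadiest. Kcnj3, the subunit that most neuronal GIRK channels share, had 121, 106 and 90.9 CPM in less anxious mice 3, 7 and 12, 114, 89.1, 105 and 112 in anxious mice 1, 4, 8 and 11, and 109, 103, 96.7 and 108 in more anxious mice 2, 6, 9 and 10. Mice 12 and 4 were the lowest and mouse 3 the highest, so that the widest range was within the less anxious group. Its log2 difference of more against less anxious mice was -0.0037 ± 0.11 (SE, 95% interval -0.25 to 0.24, adjusted p = 0.999 by edgeR), and this near-zero value changed sign when single mice were left out. Of its 31-base words, 30.0% occurred on the opposite strand in transcripts of Gm26794.

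Kcnj9, a subunit found mainly in the brain, had 103, 120 and 94.97 CPM in the less anxious mice, 115, 120, 112 and 122 in the anxious mice and 123, 114, 120 and 107 in the more anxious mice (same order). Less anxious mice 3 and 12 were the lowest of all 11, but mouse 7 lay among the highest. The log2 difference was 0.12 ± 0.097 (95% interval -0.086 to 0.33, adjusted p = 0.943 by edgeR). Kcnj6, the subunit that can form GIRK channels without partners, was low, with 6.89 to 7.38 CPM in the less anxious, 5.31 to 7.52 in the anxious and 5.83 to 7.68 in the more anxious mice. Its difference was -0.080 ± 0.17 (95% interval -0.44 to 0.28, adjusted p = 0.978). Both pairs with Kcnj3 were examined for joint variation between mice. Kcnj3 and Kcnj9 had r = 0.0846 (permutation p = 0.809, adjusted 0.910; rho = 0.0182, permutation p = 0.968, adjusted 0.968) and r = -0.421 without mice 4 and 12. Kcnj3 and Kcnj6 had r = 0.0977 (permutation p = 0.772, adjusted 0.910; rho = -0.0455, permutation p = 0.901, adjusted 0.968) and r = -0.253 without the same 2 mice.

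In a list of 23 genes of the GIRK pathway, which holds receptors, G proteins, regulators and trafficking factors, no gene was called by edgeR. Across the 3 groups, 4 of 23 had an unadjusted p below 0.05 (against 6.35% of all genes), 3 with a log2 difference of more against less anxious mice above 0 and 1 below, and the median log2 difference was 0.059. Gnai2, an inhibitory G protein α subunit, had the lowest p of them. It averaged 135 CPM in less anxious, 145 in anxious and 279 in more anxious mice, a log2 difference of 0.99 ± 0.18 (SE, adjusted p = 0.114). The study itself lists Gnai2 from these libraries, so it is not independent evidence. DESeq2's likelihood ratio test called Gnai2 (adjusted p = 6.98e-07) and Rgs7 (adjusted p = 0.0281) and none of the other 9 pathway genes named with a difference, and edgeR called Gnai2 without mouse 10 (log2 difference 1.13, adjusted p = 0.0320). Rgs7, which speeds the closing of GIRK channels, differed by 0.47 ± 0.11 (adjusted p = 0.430), Gng3, a γ subunit, by 0.37 ± 0.13 (adjusted p = 0.782), and Snx27, which sorts GIRK channels in endosomes, by -0.33 ± 0.093 (adjusted p = 0.590). The GABA-B receptor genes Gabbr1 and Gabbr2 differed by 0.23 ± 0.14 and 0.16 ± 0.091 (adjusted p = 0.918 and 0.913).

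Kcnj4 and Kcnj2 encode strong rectifiers, which nearly stop outward current at depolarized potentials. Kcnj4 had 93.6, 102 and 88.5 CPM in less anxious mice 3, 7 and 12, 82.1, 77.3, 97.6 and 86.5 in anxious mice 1, 4, 8 and 11, and 72.6, 121, 129 and 120 in more anxious mice 2, 6, 9 and 10. More anxious mice 6, 9 and 10 were above all other mice, whereas mouse 2 was the lowest of all. The log2 difference was 0.21 ± 0.17 (95% interval -0.16 to 0.58, adjusted p = 0.846 by edgeR), and without mouse 2 it was 0.37.

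Kcnj2 had 22.7, 14.7 and 26.5 CPM in the less anxious mice, 21.6, 12.6, 11.1 and 13.8 in the anxious mice and 14.3, 15.0, 13.03 and 24.4 in the more anxious mice (same order). Each group held 1 or 2 mice above 20 CPM and at least 1 mouse below 15, so the groups overlapped throughout. The log2 difference was -0.23 ± 0.24 (95% interval -0.76 to 0.30, adjusted p = 0.929). Kcnj2 and Kcnj4 were unrelated across mice (r = 0.0186, permutation p = 0.956, adjusted 0.956; rho = 0.0909, permutation p = 0.797, adjusted 0.968; leaving out mice 10 and 12, r = -0.148). In a list of 12 genes that supply the membrane lipid on which Kir channels depend or that anchor the channels, none was called by edgeR. Across the groups, 3 of 12 had an unadjusted p below 0.05 (against 6.35% of all genes), 1 with a difference above 0 and 2 below. The median log2 difference was 0.017. Cask and Dlg2, scaffold proteins of the synapse, differed by -0.50 ± 0.16 and -0.39 ± 0.12 (adjusted p = 0.692 and 0.644), and Lin7b, a partner of Cask, by 0.43 ± 0.14 (adjusted p = 0.732).

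Kcnj10, the main potassium channel of astrocytes, had 99.7, 110 and 104 CPM in less anxious mice 3, 7 and 12, 113, 78.7, 78.7 and 75.2 in anxious mice 1, 4, 8 and 11, and 91.4, 79.3, 70.4 and 83.9 in more anxious mice 2, 6, 9 and 10. The 3 less anxious mice and anxious mouse 1 lay above the other 7. The log2 difference of more against less anxious mice was -0.36 ± 0.14 (SE, 95% interval -0.66 to -0.062) with an adjusted p of 0.8001 across the 3 groups (edgeR), so it was not called. The summed level of 8 astrocyte markers differed in the same direction, with 3600 to 4310 CPM in the less anxious, 3068 to 3794 in the anxious and 3073 to 3553 in the more anxious mice. All 8 markers had a log2 difference below 0 (median -0.27), none was called, and 1 (Slc1a3) had an unadjusted p below 0.05. No marker of this list was without reads. Most of the sum came from Slc1a2 (1245 to 2167 CPM), Aldoc (702 to 985) and Slc1a3 (439 to 763). In whole tissue, fewer cells of a type and less RNA per cell cannot be told apart. The summed markers of endothelium and pericytes differed likewise, at 186 to 233 CPM in less and 137 to 167 in more anxious mice. The direction was not particular to these cells. All 5 oligodendrocyte, 5 microglia and 3 inhibitory neuron markers also had log2 differences below 0 (medians -0.14, -0.21 and -0.18). Of 4 excitatory neuron markers, 3 were above 0 (median 0.18).

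Kcnj16, which joins Kcnj10 in a shared channel, had 34.8, 39.8 and 35.4 CPM in the less anxious mice, 40.2, 27.6, 28.9 and 32.1 in the anxious mice and 35.5, 27.8, 27.1 and 37.6 in the more anxious mice (same order). Its groups overlapped, with a log2 difference of -0.18 ± 0.15 (95% interval -0.50 to 0.14, adjusted p = 0.952). Kcnj10 and Kcnj16 varied together over the 11 mice (r = 0.844, permutation p = 0.00262, adjusted 0.0118; rho = 0.855, permutation p = 0.00153, adjusted 0.0138), also without mice 1 and 7 (r = 0.725) and within the 8 mice outside the less anxious group (r = 0.815). Kcnj10 also followed the summed astrocyte markers (r = 0.819, permutation p = 0.00223, adjusted 0.0118; rho = 0.764, permutation p = 0.00898, adjusted 0.0404; leaving out mice 1 and 7, r = 0.764). For Kcnj16 the relation to these markers missed the threshold after adjustment (r = 0.634, permutation p = 0.0384, adjusted 0.0864; rho = 0.582, permutation p = 0.0657, adjusted 0.148; leaving out mice 4 and 9, r = 0.675). The part of astrocyte content in the group values of either gene was not tested. Kcnj9 and Kcnj10 are neighbors on chromosome 1, 11891 bases apart and transcribed away from each other, and Kcnj16 and Kcnj2 on chromosome 11, 38195 bases apart.

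**Figure D4:**
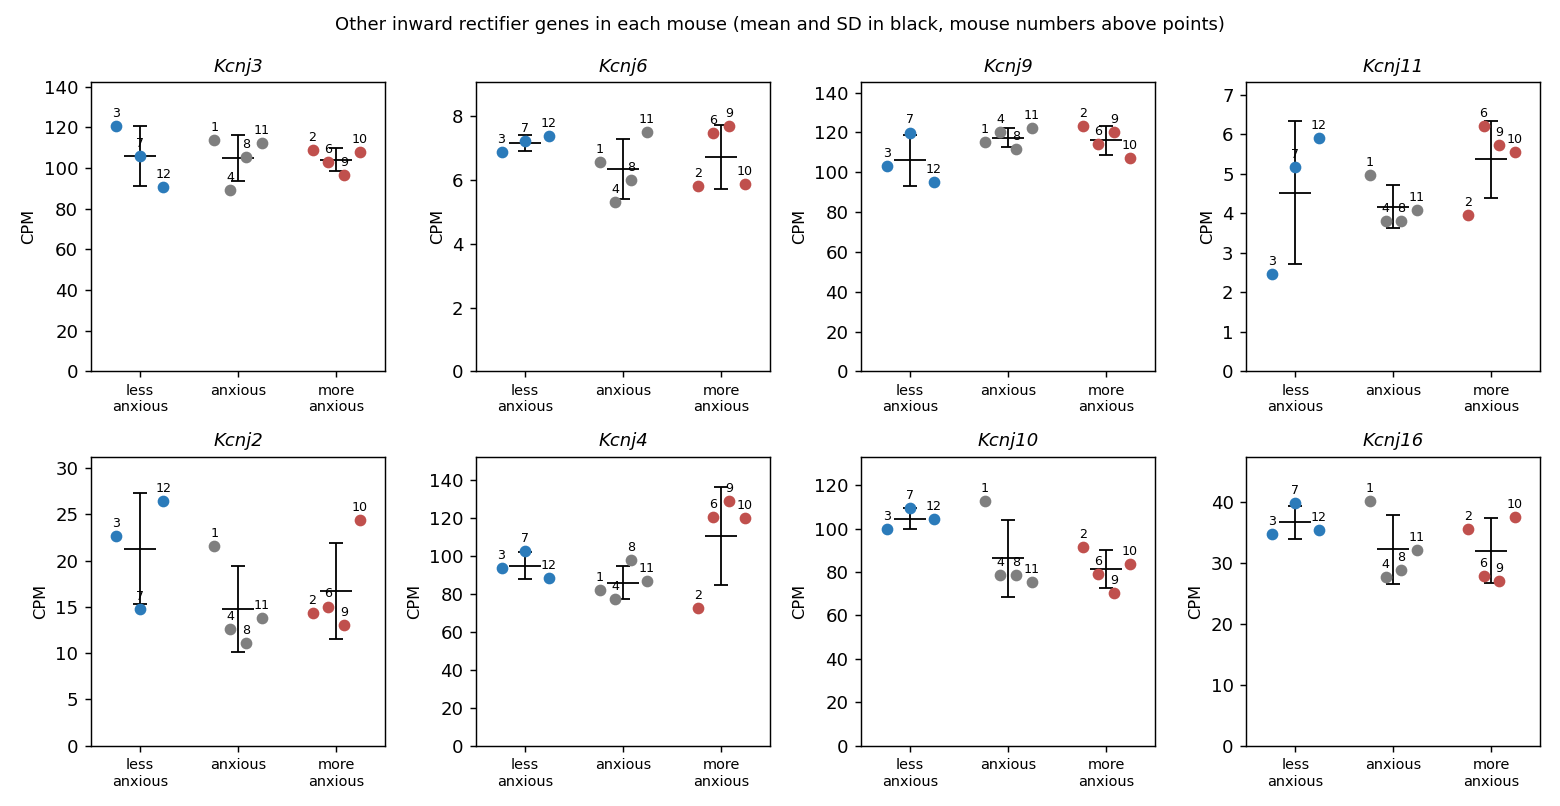
CPM of the other 8 Kir channel genes in each of the 11 mice by group, with the mean and SD in black and the mouse number above each point. The y axes start at 0 and differ between genes, and Kcnj10 is the gene whose less anxious mice (99.7 to 110 CPM) do not overlap the more anxious mice (70.4 to 91.4 CPM).

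Kcnj11, the pore of the neuronal KATP channel, had 2.47, 5.17 and 5.92 CPM in less anxious mice 3, 7 and 12, 4.97, 3.81, 3.81 and 4.08 in anxious mice 1, 4, 8 and 11, and 3.97, 6.202, 5.73 and 5.56 in more anxious mice 2, 6, 9 and 10. Mouse 3 was the lowest of all, with 89 reads, and more anxious mice 6, 9 and 10 overlapped less anxious mouse 12. The log2 difference was 0.23 ± 0.26 (95% interval -0.33 to 0.78, adjusted p = 0.934 by edgeR) and -0.050 without mouse 3, so its sign rested on that mouse. Abcc8, the sulfonylurea receptor that partners Kcnj11 in neurons, lay between 13.4 and 19.7 CPM and differed by 0.29 ± 0.13 (adjusted p = 0.811), and Abcc9, the receptor of vascular KATP channels, differed by -0.15 ± 0.17 (adjusted p = 0.976). Kcnj11 and Abcc8 had r = 0.649 (permutation p = 0.0310, adjusted 0.0864; rho = 0.673, permutation p = 0.0274, adjusted 0.0823), which was 0.443 without mice 3 and 4.

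The other Kir channel genes were at low levels, as were the members Kcnj11, Kcnj13 and Kcnj6. Per kilobase, the mean of Kcnj12 (2.10 CPM) exceeded those of these 3 members. Kcnj12 lay between 4.25 and 7.34 CPM, Kcnj14 between 2.03 and 3.25, Kcnj8 between 2.04 and 3.09 and Kcnj5 between 0.501 and 1.09. Kcnj15 and Kcnj1, which are known from the kidney, stayed at or below 0.210 and 0.131 CPM. None of the 6 was called or had an unadjusted p below 0.05, and their median log2 difference was 0.099.

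The members were then set against 1 measure from each behavior test. The choice of members did not use these measures directly, but the groups and these measures are related. The authors formed the groups from a component that they chose for its correlation with the EPM and LD measures. The slopes of Kcnj13 on open-arm time and distance in light are therefore not independent of its selection. The measures were open-arm time in the EPM as a percentage (SD over the 11 mice, 9.49 percentage points), the share of distance in the light in the LD test (SD 7.89 percentage points) and the box:zone ratio of the SIT over 10 min (SD 0.613). Slopes are log2 changes in expression per SD of the measure. edgeR called 0 of 26963 genes (0%) for open-arm time, 0 (0%) for distance in light and 6 (0.0223%) for the box:zone ratio, against 1575 (5.84%), 1565 (5.8%) and 2170 (8.05%) genes with an unadjusted p below 0.05. None of the 30 tests of a member and a measure was called. DESeq2's likelihood ratio test called 43 (0.125%), 22 (0.0637%) and 111 (0.322%) of 34511 genes and no member.

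At an unadjusted p below 0.05 there were 2 of 10 members for open-arm time, 1 for distance in light and 1 for the box:zone ratio. The count for open-arm time includes Kcnj13, for which it is no independent test. With open-arm time, Kcnj13 had a slope of 1.17 ± 0.49 (SE, 95% interval 0.076 to 2.26, adjusted p = 0.811) and Gigyf2 a slope of 0.12 ± 0.040 (95% interval 0.038 to 0.21, adjusted p = 0.683). Open-arm time was 17.5% to 24.6% in the less anxious mice, 6.73% to 20.1% in the anxious and 2.33% to 29.2% in the more anxious mice. The highest of these was more anxious mouse 6, in which Kcnj13 had only 0.300 CPM, and without it the slope of Kcnj13 was 1.33. With distance in light, the slope of Kcnj13 was 0.81 ± 0.69 (adjusted p = 0.904), with 0.39 without mouse 2, 0.49 without mouse 12, 0.52 without mouse 9 and 1.17 without mouse 6, and that of Gigyf2 0.12 ± 0.041 (adjusted p = 0.827). With the box:zone ratio, Kcnj13 had a slope of 0.17 ± 0.46 (adjusted p = 0.950), which was -0.31 without mouse 3. Kcnj11 had a slope of -0.24 ± 0.11 (adjusted p = 0.589) with this ratio. Mouse 3 combined the highest ratio, 2.62, with the lowest Kcnj11 level, and without it the slope was -0.023.

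Kcnj13 was also set against the markers of the cells best known to express it. Of 16 choroid plexus markers, 9 had a mean under 1 CPM, among them Folr1, Otx2, Kcne2 and Calml4, and only Otx2 was at 0 in any mouse, in mouse 8. Ttr (transthyretin), one of the most abundant mRNAs of that epithelium, had 1.39, 5.57 and 1.02 CPM in less anxious mice 3, 7 and 12, 2.13 to 4.77 in the anxious and 1.28 to 4.43 in the more anxious mice. In mice 3 and 12 Kcnj13 thus exceeded Ttr. The summed level of the 16 markers was 201.5 to 239 CPM in the less anxious, 162 to 221 in the anxious and 180 to 202 in the more anxious mice, and 82.5% to 91.4% of it came from Enpp2, which oligodendrocytes also express, and Tmem72. None of the 16 was called or had an unadjusted p below 0.05, and 11 had a log2 difference below 0 (median -0.27). On log2 values, Kcnj13 had r = 0.327 with the sum (permutation p = 0.327, adjusted 0.491; rho = 0.355, permutation p = 0.289, adjusted 0.434), which was -0.0794 without mice 2 and 12 and -0.526 within the 8 mice outside the less anxious group. Without Enpp2 and Tmem72, a choice made after seeing the data, the sum was 29.5 to 35.2 CPM in the less anxious, 23.4 to 33.9 in the anxious and 16.4 to 31.4 in the more anxious mice, and r was 0.146 (permutation p = 0.662; rho = 0.109, permutation p = 0.756; leaving out mice 2 and 12, r = 0.0937), and -0.507 within the 8 mice outside the less anxious group. This sum too rested on few genes, with Prlr (2.20 to 14.7 CPM), Clic6 (2.14 to 8.76) and Kl (3.81 to 8.73) the highest.

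**Figure D5:**
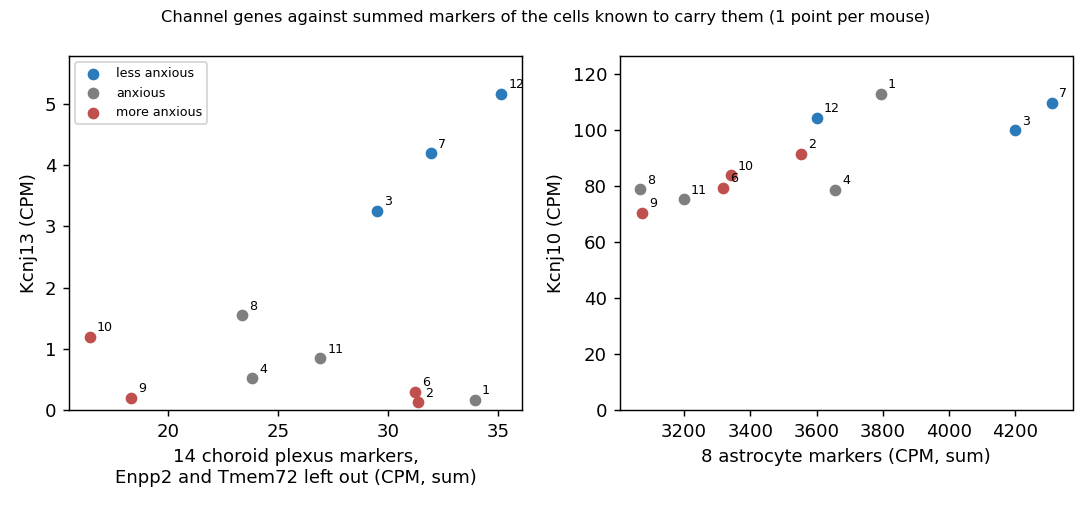
Kcnj13 against the summed CPM of 14 choroid plexus markers (left, Enpp2 and Tmem72 left out) and Kcnj10 against the summed CPM of 8 astrocyte markers (right), with 1 point per mouse, colored by group and labelled by mouse number. The choroid plexus sums were 29.5 to 35.2 CPM in the less anxious mice and 16.4 to 33.9 in the other 8. Pearson's r was taken on log2 values, whereas the axes here are linear, so it does not describe the drawn points directly. On log2 values over all 11 mice, r was 0.146 for Kcnj13 and 0.819 for Kcnj10 with these sums.

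Summed markers of ependyma (10.8 to 22.7 CPM in the less anxious, 10.6 to 15.5 in the anxious and 11.1 to 13.7 in the more anxious mice) and of meningeal fibroblasts (115 to 187, 47.3 to 164 and 72.1 to 191 CPM) overlapped between all groups. Those of the pituitary were 4.196 to 4.87 CPM in the less anxious, 3.19 to 57.8 in the anxious and 2.62 to 3.30 in the more anxious mice. Less and more anxious mice thus did not overlap, which also held for the sums of astrocytes and of endothelium and pericytes. For astrocytes the gap was narrow, from 3553 CPM in the highest more anxious to 3600 in the lowest less anxious mouse. Among single genes with a mean of at least 1 CPM, every more anxious mouse lay below every less anxious mouse in 4.76%. The highest pituitary sums were 57.8 CPM in anxious mouse 4 and 18.5 in anxious mouse 11. Of the 7 pituitary markers, 5 had an unadjusted p below 0.05 across the 3 groups (against 6.35% of all genes) and none was called by edgeR. The study itself names Prl and Pomc from these libraries, so this share is not independent evidence. All 5 had their highest group mean in the anxious mice. Between more and less anxious mice they disagreed, with 3 log2 differences below 0 (Prl, Gh and Cga) and 2 above (Pomc and Lhb). Of the 7 markers, 3 had a mean under 1 CPM. The part of these cell types in the Kcnj13 values was not tested.

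The genes most like Kcnj13 were sought by Pearson's r of log2 CPM over the 11 mice among 15890 genes with a mean of at least 1 CPM. The first 10 were Zfyve16, an endosomal protein (r = 0.950), Atic, an enzyme of purine synthesis (0.896), Tmem87b (0.869), Mkln1 (0.859), D5Ertd615e (0.852), Rmdn2 (0.848), Psma6, a proteasome subunit (0.847), Lrig2 (0.838), Rint1 (0.834) and Entpd2, an enzyme that breaks down extracellular ATP (0.832). All points share the libraries in which Kcnj13 was selected, and no p is given. Zfyve16 had 20.5 to 23.0 CPM in the less anxious, 15.8 to 19.7 in the anxious and 16.2 to 19.1 in the more anxious mice, so its range was far narrower than that of Kcnj13, of which the highest mouse was 38.4 times the lowest. Without mice 2 and 12 its r was 0.923, and within the 8 mice outside the less anxious group 0.910. For Rmdn2, Lrig2 and Entpd2 the r within these 8 mice was 0.558, 0.498 and 0.511. In this order Gigyf2 came at place 674, Kcnj10 at 2352, Kcnj2 at 2527, Kcnj16 at 3262 and Kcnj9 at 15396.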

How the data were processed

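Reads were trimmed and checked on mm10 alignments, and the authors summed Salmon's transcript estimates by gene. They deposited these estimated counts, as whole numbers without normalization, for 47729 genes and 12 mice. The version of Salmon and its strand setting are not given in the sources used here. Symbols and positions came from GENCODE M21, with an entry for 47310 genes (99.1%). Mouse 5, which has no group and which the authors removed as an outlier, was left out of all comparisons. No 2 libraries agreed within sampling noise (mean chi-square per gene of at least 19.3 over 66 pairs).

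Genes with at least 10 reads over the 11 mice (26963) were tested with edgeR 4.0.16 in R 4.3.3 (quasi-likelihood F-test, robust, TMM factors). The 3 groups were tested together with the PC1 score of variance-stabilized counts (DESeq2 1.42.0) as covariate, and each behavior measure alone, standardized. Benjamini-Hochberg adjusted p-values below 0.05 were called. CPM were scaled by TMM, and a prior count of 2 was added for log2 CPM. Correlations were taken on log2 CPM, with marker sums as the log2 of the summed CPM, and had two-sided permutation tests (100000 permutations). SE and intervals came from the F statistic, and p-values measure the spread between single mice. Counting error alone limits Kcnj13, with as few as 6 reads in a mouse.

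The members, marker lists and pathway lists were chosen with earlier results of these data known. Genes named are the members, the 10 genes most like Kcnj13, and genes of these lists where a result turns on them. The group fit without the PC1 covariate and the fit to open-arm time were run on simulated data, but the group fit with that covariate was not. Alternatives were DESeq2 or its size factors, no count filter, no robust option, another covariate choice, group order as a number, another gene length, and leaving out each mouse.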

Additional observations from a re-analysis of the deposited data

Results flagged for a closer look

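In 20 groups of 4 mice (10 genes, anxious and more anxious), 4 values stood apart from the other 3 by Dixon's criterion, where chance flags about 1 in 20 groups. Kcnj13 was 1.20 CPM in more anxious mouse 10, above 0.134 to 0.300 in the other 3. Gigyf2 was 66.6 CPM in more anxious mouse 6, above 51.2 to 53.4. Kcnj4 was 72.6 CPM in more anxious mouse 2, below 120 to 129. Kcnj10 was 113 CPM in anxious mouse 1, above 75.2 to 78.7, and that mouse also had the highest summed astrocyte markers of its group (3794 CPM).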

How the results depend on the processing

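The number of genes called across the groups moved from 2 to 9 without the count filter, 186 with DESeq2, 1 without the robust option, 0 without the PC1 covariate and 22 with group order as a number, and lay between 0 and 4 with each mouse left out. For open-arm time it moved from 0 to 1 with DESeq2 size factors, 1 without the count filter, 43 with DESeq2 and 2 without the robust option (0 to 3 with a mouse left out), for distance in light from 0 to 22 with DESeq2 (0 to 14, the 14 without more anxious mouse 6), and for the box:zone ratio from 6 to 10 without the filter, 111 with DESeq2 and 2 with the PC1 covariate (1 to 9). In none of these settings was a member other than Kcnj13 called for the groups, or any member for a behavior measure. The Kcnj13 difference ranged from -4.54 (without mouse 10) to -2.93 with a mouse left out and from -3.26 to -3.22 in the other settings. With a mouse left out, Kcnj3 ranged from -0.10 to 0.087 (0.0021 without the count filter), Kcnj11 from -0.050 to 0.49, and the Kcnj13 slope on the box:zone ratio from -0.31 to 0.56. The correlation of Kcnj13 with Gigyf2 ranged from 0.436 to 0.670 and passed an unadjusted p of 0.05 without mouse 1, 6 or 10 (0.668, 0.657 and 0.670). The other differences of the members and the other slopes given kept their sign and stayed uncalled. The 11 pathway genes named with a difference, recomputed after seeing the data, kept their sign in every setting run, and Gnai2 and Rgs7 were called by DESeq2 and Gnai2 by edgeR without mouse 10. By longest transcript, Kcnj9 came to 29.5 CPM per kilobase. The cause of these moves was not tested. No paired analysis was possible because the labels give the groups no shared replicate numbers.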

Other observations

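Mouse 5 was put in no group by the labels, and the paper removed it as an outlier in a principal component analysis. Its library had reads in 23768 genes, against 26378 to 28196 in the other 11 mice. It had 4 Kcnj13 reads, or 0.122 CPM of its total, against 0.133 to 5.34 in the other 11 mice on the same scale. Its Gigyf2 level was 68.3 CPM (50.6 to 73.9 in the others). Kcnj3 was at 141 CPM, above the 89.1 to 120 of the others, and the other 7 genes lay within the range of the 11 mice.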
